A study of Mus musculus with 4 samples.

Results

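Immediate early genes are switched on within minutes of a stimulus without new protein synthesis, and their transcripts are short-lived. Many encode transcription factors such as the Fos and Jun proteins, which pair to form the factor AP-1, while others encode brakes on the same signals. Macrophages use them after contact with microbes, cytokines or serum, and cells of many tissues switch them on while being washed out, dissociated or handled. 10 such genes were described across 4 samples of mouse peritoneal macrophages: the AP-1 genes Fos, Fosb, Jun, Junb and Jund, the further transcription factor genes Atf3 and Egr1, the small nuclear protein gene Ier2, and the feedback genes Dusp1 and Zfp36. They were chosen by gene symbol as commonly named genes of the immediate early and dissociation response, and they are 10 of the 13834 genes listed in the table of counts. All 10 were among the 12542 genes that passed the filter on low counts and were tested.

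Peritoneal macrophages are phagocytic cells recovered by washing the abdominal cavity. RNA from 4 samples was sequenced, 2 labelled Dnmt1 fl/fl and 2 labelled Dnmt1 KO, to compare gene expression with and without Dnmt1, the enzyme that copies DNA methylation to newly made strands. All mice carried floxed Dnmt1 alleles, and those of the Dnmt1 KO group also expressed Cre recombinase under the LysM promoter. That promoter is active in myeloid cells, which include macrophages, monocytes and neutrophils. Loss of the gene in each cell type was not measured in these RNA data. The labels give the Dnmt1 fl/fl genotype as wt and the treatment of every sample as isolate. In the methods of the study, macrophages came from 10-week-old mice given thioglycolate broth, which draws leukocytes into the cavity, and were washed out with chilled buffer, spun down and placed in culture medium with serum. The time between the wash and RNA extraction is not given in the sources used here, and neither is the order in which samples were handled. Nothing in the labels says that replicates came from separate animals, so p-values measure only the spread between these samples, which may be technical.

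The depth of the Dnmt1 fl/fl samples was 20228071 counts for replicate 1 and 24198943 for replicate 2, and that of the Dnmt1 KO samples 21767795 for replicate 1 and 22611219 for replicate 2. Levels are given in CPM, the count of a gene relative to the total of its sample, after scaling between samples with the trimmed mean of M-values (TMM). Differences are given as log2 fold changes of Dnmt1 KO over Dnmt1 fl/fl with their standard error (SE), from edgeR's quasi-likelihood test fitted on the whole table. Its p-values were adjusted by the Benjamini-Hochberg method over the 12542 genes tested, with a threshold of 0.05. Genotypes are said not to overlap when both samples of one lie above both samples of the other. For 1 gene on its own, the smallest p that a two-sided exact permutation test can reach with 2 against 2 samples is 0.333.

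Dnmt1, the targeted gene, was at 86.6 and 67.0 CPM in the Dnmt1 fl/fl samples and at 37.0 and 42.7 CPM in the Dnmt1 KO samples. Both Dnmt1 KO samples were lower than both Dnmt1 fl/fl samples, in the direction the labels give, and Dnmt1 transcript was left in both. The log2 fold change was -0.95 (SE 0.24), with an adjusted p of 1.00 by edgeR and Benjamini-Hochberg. The macrophage label was checked against 7 markers, and 7 of 7 were listed and tested. The marker Adgre1, which encodes F4/80, was at 942 and 774 CPM in the Dnmt1 fl/fl samples and at 700.4 and 986 CPM in the Dnmt1 KO samples, with overlapping genotypes. Summed over the 7 markers the level was 35271 and 34117 CPM in the Dnmt1 fl/fl samples and 17447 and 21289 CPM in the Dnmt1 KO samples. Most of that sum was Lyz2, the lysozyme gene whose promoter drives the Cre, at 29531, 28588, 11351 and 15745 CPM in the same order. Without Lyz2 the other 6 markers summed to 5741, 5530, 6096 and 5544 CPM, but single markers, named here after their values were seen, differed between the samples in opposite ways. Mertk was at 184, 152, 121 and 234 CPM, lowest in Dnmt1 KO replicate 1 and highest in replicate 2, while Fcgr1 was at 216, 199.8, 334 and 184 CPM and Cd68 at 1487, 1145, 1835 and 1306 CPM, both highest in Dnmt1 KO replicate 1.

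None of the 10 immediate early genes passed the threshold. The count was 0 of 10 by edgeR's adjusted p, where the share among all genes tested was 0%. At an unadjusted p under 0.05 the count was also 0 of 10, beside 35 genes or 0.279% of all tested, and DESeq2 and limma-voom likewise gave 0 of 10 at either threshold. Over the whole table DESeq2 called 1 gene and limma-voom 0 at an adjusted p under 0.05, with 39 and 40 genes at an unadjusted p under 0.05. Genotypes did not overlap for 1 of the 10, Egr1, against 16.7% of all genes tested, and it was the 1 of 10 with both Dnmt1 KO samples below both Dnmt1 fl/fl samples, against 8.56% of all genes tested. The median log2 fold change of the 10 was -0.09, with 4 positive and 6 negative, and that of all genes tested was 0.00457.

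**Figure D1:**
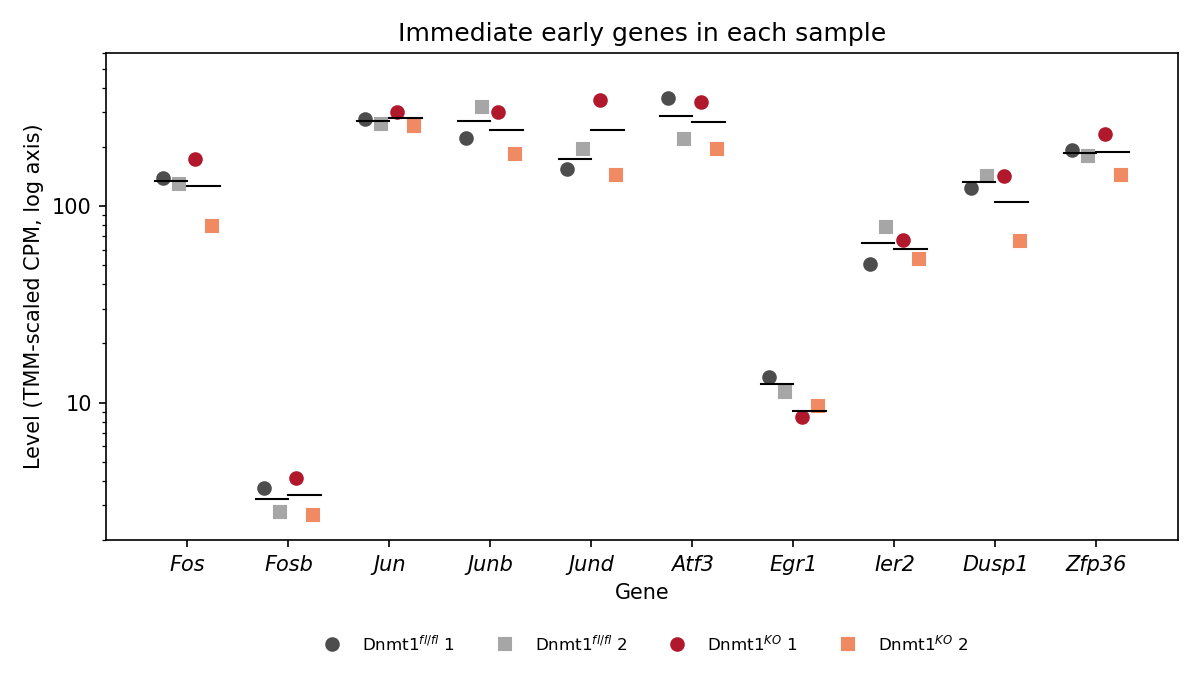
Level of each immediate early gene in each sample, in TMM-scaled CPM on a log axis. Symbols are the 4 samples and horizontal lines the mean of the 2 samples of a genotype. Only Egr1 has both Dnmt1 KO samples (8.43 and 9.62 CPM) below both Dnmt1 fl/fl samples (13.5 and 11.3 CPM), while Dnmt1 KO replicate 2 is the lowest sample of 8 genes.

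Fos encodes the Fos protein, which binds DNA only when paired with a Jun protein, and lies at chr12:85473890-85477273 on the plus strand of the mouse build GRCm38. Its level was 139 CPM in replicate 1 and 129 CPM in replicate 2 of Dnmt1 fl/fl, and 174 CPM in replicate 1 and 79.6 CPM in replicate 2 of Dnmt1 KO. Pairs of values are given in this order for every gene. The Dnmt1 fl/fl samples lay close together between the Dnmt1 KO samples, of which replicate 1 was the highest of the 4 and replicate 2 the lowest. Means were 134 ± 6.80 CPM in Dnmt1 fl/fl and 127 ± 66.5 CPM in Dnmt1 KO (SD, n = 2 each). The log2 fold change was -0.08 (SE 0.39, 95% interval -1.05 to 0.90), and Fos was 2.18 times as high in Dnmt1 KO replicate 1 as in replicate 2. Without Dnmt1 KO replicate 1 its log2 fold change was -0.75, and without Dnmt1 KO replicate 2 it was 0.38. Fosb, whose protein also pairs with Jun proteins, lies at chr7:19302696-19310051 on the minus strand and was far lower, at 3.70 and 2.79 CPM in Dnmt1 fl/fl and 4.14 and 2.67 CPM in Dnmt1 KO. These values rest on 63 to 82 counts per sample. The order of the samples was that of Fos, with the Dnmt1 KO samples at both ends and the genotypes overlapping. Fosb had a log2 fold change of 0.07 (SE 0.41), with a 95% interval from -0.96 to 1.10.

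Among the Jun genes, Jun (chr4:95049034-95052222, minus strand) encodes the founding partner of Fos in AP-1. It was at 279 and 261 CPM in Dnmt1 fl/fl and at 301 and 256 CPM in Dnmt1 KO. Of the 10 genes it varied least between replicates, with a pooled SD of 0.13 on the log2 scale, and its genotypes overlapped. Its log2 fold change was 0.05 (SE 0.23, 95% interval -0.51 to 0.61). Junb (chr8:84974484-84978718, minus strand), whose protein can replace Jun as a weaker activator, was at 222 and 318 CPM in Dnmt1 fl/fl and at 302 and 184 CPM in Dnmt1 KO. Each genotype held a high and a low sample, and the lowest was Dnmt1 KO replicate 2. For Junb the log2 fold change was -0.15 (SE 0.34).

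Jund (chr8:70698949-70700616, plus strand) encodes the Jun protein that most cells make without a stimulus. Its level was 154 and 195 CPM in Dnmt1 fl/fl and 344 and 144 CPM in Dnmt1 KO. Dnmt1 KO replicate 1 stood above the other 3 samples, and Dnmt1 KO replicate 2 was below both Dnmt1 fl/fl samples. The means were 174 ± 29.1 CPM in Dnmt1 fl/fl and 244 ± 142 CPM in Dnmt1 KO (SD, n = 2 each). The log2 fold change, 0.49 (SE 0.44), was the highest of the 10 genes and had an edgeR adjusted p of 1.00 by Benjamini-Hochberg. Leaving out single Dnmt1 KO samples moved it both ways. Without Dnmt1 KO replicate 2 it was 0.98, with an edgeR adjusted p of 0.0242 by Benjamini-Hochberg, the lowest over the alternatives planned, which otherwise gave 1.00. Jund was then the 1 of 10 immediate early genes called. In that fit 1061 of 12754 genes, 8.32%, were called, and the lone Dnmt1 KO sample was assumed to vary like the Dnmt1 fl/fl samples. Jund had a log2 fold change of -0.28 without Dnmt1 KO replicate 1.

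Atf3 (chr1:191170296-191218039, minus strand) encodes a factor of the ATF/CREB family that is induced by stress and acts mostly as a repressor of inflammatory genes in macrophages. It was at 353 and 219 CPM in Dnmt1 fl/fl and at 339 and 194 CPM in Dnmt1 KO. Replicate 1 was above replicate 2 in both genotypes, by 1.61 times in Dnmt1 fl/fl and 1.75 times in Dnmt1 KO, and the genotypes overlapped. Between genotypes the log2 fold change was -0.10 (SE 0.38, 95% interval -1.04 to 0.84).

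Egr1 encodes a zinc finger factor that is induced through serum response factor and that takes part in monocyte and macrophage differentiation. It lies at chr18:34859823-34864984 on the plus strand. Its level was 13.5 and 11.3 CPM in Dnmt1 fl/fl and 8.43 and 9.62 CPM in Dnmt1 KO, from 277, 284, 167 and 227 counts in that order. The genotypes did not overlap, with Dnmt1 KO lower, and the lowest sample was Dnmt1 KO replicate 1, not replicate 2 as for most of the other genes. The means were 12.4 ± 1.54 CPM in Dnmt1 fl/fl and 9.03 ± 0.839 CPM in Dnmt1 KO (SD, n = 2 each). The log2 fold change was -0.46 (SE 0.27), the lowest of the 10, and its 95% interval from -1.14 to 0.22 held 0. It stayed between -0.58 and -0.33 when each sample was left out in turn. Since the genotypes did not overlap, leaving out 1 sample could hardly turn its sign. In bulk RNA, fewer cells of a type and less RNA per cell cannot be told apart, here and for every gene described.

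Ier2 (chr8:84661331-84662852, minus strand) encodes a nuclear protein induced by serum and growth factors. It was at 50.7 and 78.3 CPM in Dnmt1 fl/fl and at 67.0 and 53.6 CPM in Dnmt1 KO. The Dnmt1 fl/fl samples lay at both ends and the Dnmt1 KO samples between them. Its log2 fold change was -0.10 (SE 0.29, 95% interval -0.82 to 0.62).

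The last 2 genes encode brakes on the response. Dusp1 (chr17:26505590-26562128, minus strand) encodes a phosphatase that switches off the MAP kinases p38 and JNK, and its level was 124 and 142 CPM in Dnmt1 fl/fl and 142 and 66.8 CPM in Dnmt1 KO. The other 3 samples were well above Dnmt1 KO replicate 2 and the genotypes overlapped, with Dnmt1 KO replicate 1 level with the higher Dnmt1 fl/fl sample. Means were 133 ± 13.3 CPM in Dnmt1 fl/fl and 104 ± 53.3 CPM in Dnmt1 KO (SD, n = 2 each). The log2 fold change was -0.35 (SE 0.39), and it was -0.996 without Dnmt1 KO replicate 1 and 0.10 without Dnmt1 KO replicate 2. In the fit without Dnmt1 KO replicate 1, Fos and Dusp1 were the 2 of the 10 genes with an unadjusted p under 0.05 by edgeR, both lower in Dnmt1 KO, beside 352 of 12912 genes, and 0 genes had an adjusted p under 0.05. Zfp36 (chr7:28376784-28380253, minus strand) encodes tristetraprolin, which binds AU-rich stretches in the transcripts of cytokines and speeds their decay. It was at 193 and 179 CPM in Dnmt1 fl/fl and at 232 and 143 CPM in Dnmt1 KO. The Dnmt1 fl/fl samples again lay between the Dnmt1 KO samples, as for Fos. Zfp36 had a log2 fold change of 0.01 (SE 0.30, 95% interval -0.72 to 0.75).

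The 10 genes were also compared between replicates of a genotype, beside all genes tested. Dnmt1 KO replicate 2 was below Dnmt1 KO replicate 1 in 9 of the 10, all but Egr1, beside 49.3% of all genes tested. The median log2 difference of replicate 2 minus replicate 1 was -0.71 in Dnmt1 KO and -0.10 in Dnmt1 fl/fl, and over all genes tested these medians were 0.01 and 0.00063. As absolute log2 differences the medians were 0.71 in Dnmt1 KO and 0.30 in Dnmt1 fl/fl for the 10 genes, and 0.48 and 0.21 for all genes tested. The lowest of the 4 samples was Dnmt1 KO replicate 2 in 8 of the 10, all but Egr1 and Ier2, beside 25.8% of all genes tested. Dnmt1 KO replicate 1 was the highest in 5 of the 10, namely Fos, Fosb, Jun, Jund and Zfp36, beside 38.8% of all genes tested. In these 5 genes both Dnmt1 fl/fl samples lay between the Dnmt1 KO samples in that order, which held for 19.3% of all genes tested. The opposite order, with replicate 2 highest and replicate 1 lowest, occurred in 0 of the 10 and in 20.3% of all genes tested.

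**Figure D2:**
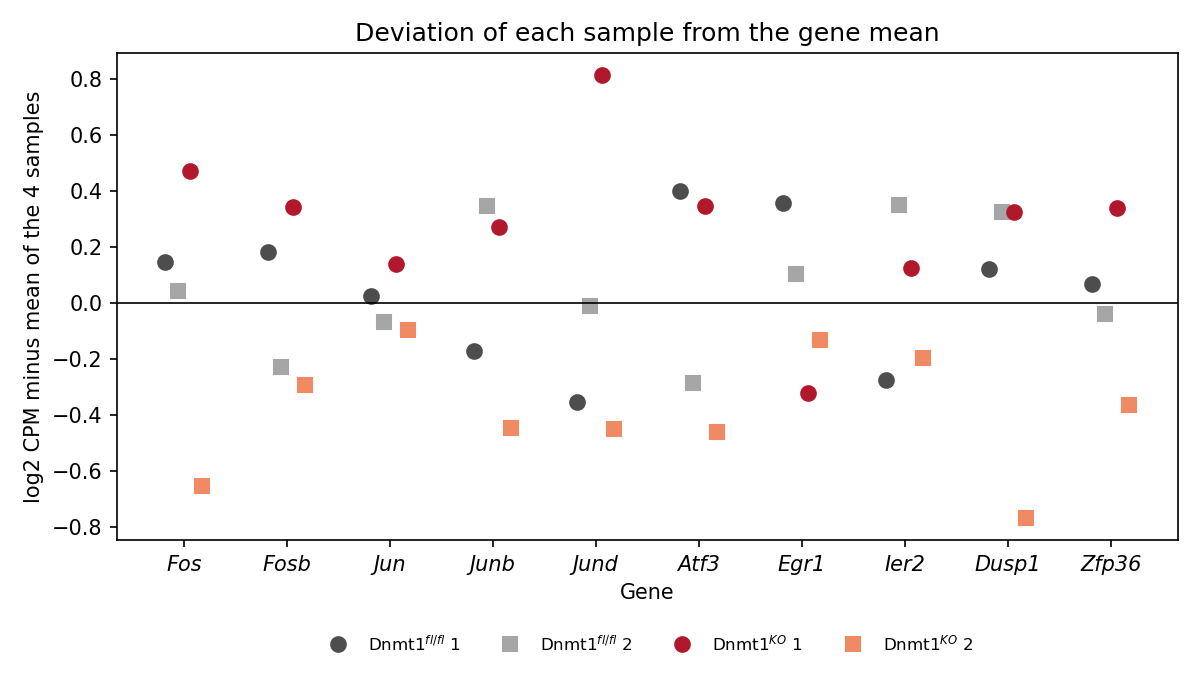
Deviation of each sample from the mean of the 4 samples, in log2 CPM, for each immediate early gene. Dnmt1 KO replicate 2 is below 0 for all 10 genes, from -0.77 for Dusp1 to -0.10 for Jun, and Dnmt1 KO replicate 1 is above 0 for 9, up to 0.81 for Jund.

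Markers of other cells also differed between these samples. Of 11 neutrophil markers, 9 were listed and 8 tested, and Camp and Ngp were not listed. Summed over the 9, the level was 216 and 323 CPM in the Dnmt1 fl/fl samples and 908 and 217 CPM in the Dnmt1 KO samples, replicate 1 first. The most abundant, the cytokine receptor gene Csf3r, varied least of the 9, at 158, 137, 169 and 159 CPM, and without it the sums were 57.2, 186, 739 and 58.9 CPM. All 9 were highest in Dnmt1 KO replicate 1. The defining marker Ly6g was at 0.0487, 0.319, 3.99 and 0.0424 CPM in the same order, where 3 counts correspond to 0.12 to 0.151 CPM, so it was below that floor in Dnmt1 fl/fl replicate 1 and Dnmt1 KO replicate 2. S100a9, which encodes a calcium-binding protein abundant in neutrophils and is named after its values were seen, was at 5.55, 60.5, 320.1 and 8.35 CPM. Retnlg, at 7.89, 6.22, 40.6 and 5.93 CPM, and Ltf, at 0.487, 0.478, 2.98 and 0.424 CPM, were also named after their values were seen. Dnmt1 fl/fl replicate 2 was below replicate 1 for Retnlg, Ltf and Csf3r, and above it for the remaining markers. The highest sample for Fos, Fosb, Jun, Jund and Zfp36 was thus also the highest in neutrophil markers. Dnmt1 fl/fl replicate 1 and Dnmt1 KO replicate 2, which had the lowest neutrophil sums, were also the lowest pair of samples in Junb, Jund, Ier2 and Dusp1 but not in the other 6 of the 10 genes. They differed from each other in Fos, at 139 and 79.6 CPM, and in Dusp1, at 124 and 66.8 CPM. The part of neutrophil RNA in the levels of the 10 genes was not tested.

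B cell markers showed another order, and their part was not tested either. All 6 were listed, led by Ighm, and summed to 318 and 483 CPM in Dnmt1 fl/fl and to 130 and 525 CPM in Dnmt1 KO, with Dnmt1 KO replicate 1 the lowest. The 7 T and NK cell markers, led by Cd2, summed to 30.1, 52.5, 31.2 and 42.7 CPM across Dnmt1 fl/fl replicates 1 and 2 and Dnmt1 KO replicates 1 and 2. In the same order the 6 dendritic cell markers, led by Cd209a, summed to 42.3, 40.8, 23.6 and 53.1 CPM, lowest in Dnmt1 KO replicate 1. The 7 mesothelial markers, led by Krt8, summed to 7.36, 10.3, 16.3 and 5.68 CPM, highest in that sample and lowest in Dnmt1 KO replicate 2. Mast cell markers, 6 of 6 listed and led by Cma1, were at 12.7, 10.8, 10.3 and 8.94 CPM in sum. Of 5 eosinophil markers 2 were listed, led by Ccr3, at a sum of 11.8, 8.21, 7.47 and 8.43 CPM, and Epx, Prg2 and Ear6 were not listed. Hbb-bs, the 1 of 5 erythroid markers listed, was at 0.682, 0.0797, 0.202 and 0.847 CPM.

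Other immediate early genes were taken from a wider list of 44. All were listed and 42 tested, of which 0 had an edgeR adjusted p under 0.05, and 2 had an unadjusted p under 0.05, both lower in Dnmt1 KO, beside 0.279% of all genes tested. These were Fosl2 and Dusp6, the latter named after its values were seen. For this list and the 4 described next, DESeq2 and limma-voom also gave 0 genes at an adjusted p under 0.05. Genotypes did not overlap for 8 of the 42, or 19.0%, beside 16.7% of all genes tested; 1 of the 8 was higher and 7 were lower in Dnmt1 KO, and 8.56% of all genes tested were lower in this way. The median log2 fold change was -0.08. Dnmt1 KO replicate 2 was below replicate 1 in 35 of the 42 and the lowest of the 4 samples in 27, as it was in most of the 10 genes above. Nfkbiz, which encodes an inducible regulator of NF-κB target genes, was at 38.9 and 44.7 CPM in Dnmt1 fl/fl and at 14.4 and 34.9 CPM in Dnmt1 KO, with a log2 fold change of -0.76 (SE 0.43). Tnfaip3, the gene of the NF-κB inhibitor A20, was at 93.9 and 66.7 CPM in Dnmt1 fl/fl and at 62.8 and 44.7 CPM in Dnmt1 KO, with a log2 fold change of -0.58 (SE 0.29). In each of these genes the Dnmt1 KO samples were the lower pair, with Dnmt1 KO replicate 1 lowest for Nfkbiz and replicate 2 lowest for Tnfaip3. Klf10, a zinc finger factor gene induced by TGF-β, was the 1 gene with both Dnmt1 KO samples higher, at 74.5 and 83.4 CPM in Dnmt1 fl/fl and at 84.5 and 90.0 CPM in Dnmt1 KO, with a log2 fold change of 0.14 (SE 0.21).

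Heat shock genes belong to the dissociation response of many tissues and encode chaperones that refold damaged proteins. All 14 of that list were tested, and 0 passed edgeR's adjusted threshold, 0 had an unadjusted p under 0.05 and 0 had genotypes that did not overlap, beside 16.7% of all genes tested. Their median log2 fold change was 0.07. Like the immediate early genes they split the Dnmt1 KO samples, with replicate 2 below replicate 1 in 13 of the 14 and a median log2 difference of -0.70. Dnmt1 KO replicate 1 was the highest of the 4 samples in 11 of the 14, and Dnmt1 KO replicate 2 the lowest in 9. Hspa1a, named after its values were seen, was at 22.6 and 35.8 CPM in Dnmt1 fl/fl and at 35.8 and 14.1 CPM in Dnmt1 KO. It is nearly identical to its neighbour Hspa1b, and how reads matching both were counted is not stated, so the level of either is uncertain.

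The genes that act before or beside AP-1 made up another pair of lists. Among 29 kinases and factors that act upstream of immediate early genes, such as the MAP kinases and serum response factor, Dnmt1 KO replicate 2 was below replicate 1 in 13 and the lowest sample in 10. The median log2 difference between those samples was 0.02 and the median log2 fold change 0.04. By edgeR 0 of the 29 passed the adjusted threshold and 0 had an unadjusted p under 0.05, and genotypes did not overlap for 2, or 6.90%, both higher in Dnmt1 KO, where 16.7% of all genes tested did not overlap. Those were Mapk9, the gene of the kinase JNK2, at 42.3, 38.5, 44.1 and 44.2 CPM in Dnmt1 fl/fl replicates 1 and 2 and Dnmt1 KO replicates 1 and 2, and Rps6ka1, a kinase gene acting after ERK, at 89.9, 91.0, 96.4 and 92.3 CPM. Their log2 fold changes were 0.13 (SE 0.20) and 0.06 (SE 0.21), smaller than their errors. Of 19 other AP-1 and ATF family genes, all listed, 18 were tested, and Dnmt1 KO replicate 2 was below replicate 1 in 11 and lowest in 6. The median log2 fold change was 0.05, 0 passed edgeR's adjusted threshold, 1 had an unadjusted p under 0.05, beside 0.279% of all genes tested, and genotypes did not overlap for 2, or 11.1%, beside 16.7%. The 1 gene was Fosl2, already counted in the wider list above.

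The 2 AP-1 family genes whose genotypes did not overlap were Fosl2 and Jdp2. Fosl2, whose protein Fra-2 pairs with Jun proteins, was at 94.8 and 105 CPM in Dnmt1 fl/fl and at 72.3 and 64.4 CPM in Dnmt1 KO. Both Dnmt1 KO samples were lower and close to each other, with a log2 fold change of -0.54 (SE 0.22) and an edgeR adjusted p of 1.00 by Benjamini-Hochberg. Jdp2, whose protein pairs with Jun and represses AP-1 targets, was at 17.0 and 23.5 CPM in Dnmt1 fl/fl and at 30.8 and 25.6 CPM in Dnmt1 KO. Both Dnmt1 KO samples were higher, with a log2 fold change of 0.48 (SE 0.26) and an edgeR adjusted p of 1.00 by Benjamini-Hochberg.

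Transcripts bound by tristetraprolin, the product of Zfp36, formed the list with the widest gap between the Dnmt1 KO samples among the 5 lists compared. Of 17 such genes 14 were listed and 11 tested, while Il6, Il23a and Csf2 were not listed. By edgeR 0 of the 11 passed the adjusted threshold and 0 had an unadjusted p under 0.05, and 0 had genotypes that did not overlap, beside 16.7% of all genes tested. The median log2 fold change was -0.16, with 2 positive and 9 negative. Dnmt1 KO replicate 2 was below replicate 1 in 10 of the 11, with a median log2 difference of -1.65, and it was the lowest sample in 8. Dnmt1 fl/fl replicate 2 was above replicate 1 in 9 of the 11, with a median log2 difference of 0.81. Il1b, the gene of the cytokine interleukin-1β and named after its values were seen, was at 8.18 and 34.7 CPM in Dnmt1 fl/fl and at 33.5 and 7.46 CPM in Dnmt1 KO. Each genotype thus held a high and a low sample for Il1b, and the low ones were those with the lowest neutrophil marker sums. Zfp36 itself was not ordered in this way in Dnmt1 fl/fl, where replicate 1 was the higher at 193 CPM.

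**Figure D3:**
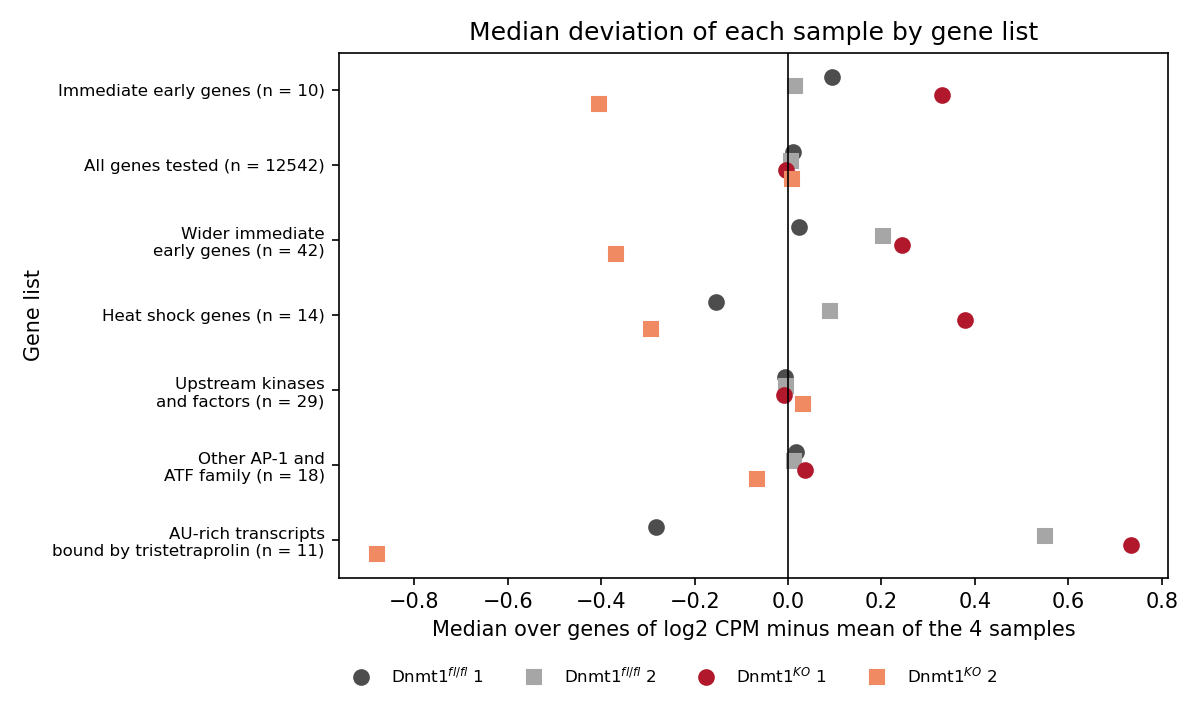
Median over the genes of each list of the deviation of a sample from the mean of the 4 samples, in log2 CPM, with the number of genes tested in each list. Dnmt1 KO replicate 2 lies at -0.40 for the immediate early genes, -0.37 for the wider list, -0.29 for heat shock genes and -0.88 for transcripts bound by tristetraprolin, and at 0.03 for upstream kinases and factors and 0.0075 for all genes tested.

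To compare levels between the 10 genes, CPM were divided by the length of the exons of each gene in kilobases. On this scale the highest mean levels over the 4 samples were those of Atf3 at 128, Jund at 125 and Junb at 112 CPM per kilobase. Their samples spanned 90.2 to 164 for Atf3, 86.1 to 206 for Jund and 79.9 to 138 CPM per kilobase for Junb, so the order of these levels did not exceed the spread over samples. Jun followed with a mean level of 86.0 CPM per kilobase and a narrow range from 80.3 to 94.4 that lay within that of Junb and overlapped those of Atf3 and Jund. Fos at 55.3 and Zfp36 at 53.8 CPM per kilobase had similar mean levels, and every sample of Fos was below every sample of Jun on this scale. Lower mean levels were those of Ier2 at 41.0 and Dusp1 at 35.9 CPM per kilobase, with ranges that overlapped. All 8 of these genes were at or above the 89.9th percentile of mean CPM per kilobase among the 12380 genes tested that had a length. Egr1 at 2.39 and Fosb at 0.533 CPM per kilobase stood apart, at percentiles 33.2 and 13.8 of the same scale, and every sample of both was below every sample of the other 8 genes on it.

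Some of these genes share exon bases with another gene on the opposite strand, and use of strand in counting is not stated, so reads of such partners cannot be told apart. The antisense gene Junos shares 232 exon bases, 7.28% of the exons, with Jun. It was at 9.26 and 9.73 CPM in Dnmt1 fl/fl and at 24.3 and 7.29 CPM in Dnmt1 KO, highest and lowest in the same samples as Jun and at a small part of its level. Jund shares 877 exon bases, 52.6% of its exons, with the antisense gene Gm11175, which is not listed. Junb shares 173 exon bases, 7.52%, with the peroxiredoxin gene Prdx2, which was at 89.7, 125, 169 and 99.2 CPM in Dnmt1 fl/fl replicates 1 and 2 and Dnmt1 KO replicates 1 and 2. Zfp36 shares 125 exon bases, 3.60%, with the antisense gene Gm44710, which is not listed, and Dusp1 shares 11 with Ergic1. The deposited counts of Jun and Jund were not whole numbers in any of the 4 samples, that of Zfp36 was not whole in 1, and those of the other 7 genes were whole in all 4.

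The promoters were read for shared letters in the RefSeq table of build GRCm38.p6, over the 250 bases before each start. Fos, Fosb, Jun, Junb, Jund, Atf3, Dusp1 and Zfp36 matched by symbol, and Egr1 and Ier2 did not. The start given for Jund lies 1210 bases from the nearest start in the GENCODE M21 annotation. Its 250 bases may therefore not be its promoter, but they count among the 8 for every motif. The matched genes were all lowest in Dnmt1 KO replicate 2, so none of the 10 with another lowest sample was read and the letters cannot be tied to that order. The letters TGACG, the core of the site of CREB and ATF proteins, occurred on either strand in 5 of 8, beside 17.8% of all 32851 promoters in the table and 26.3% of the 12570 promoters of genes tested. The full palindrome TGACGTCA, which contains TGACG on both strands, occurred in 1 of 8, Dusp1, beside 1.55% of all promoters and 2.50% of those of genes tested. Shown are 40 bases around a match in the genes that had one outside all their annotated exons, with the match in capitals and each read 5′ to 3′ along the strand of the gene. For Fos, which had 2 matches, the nearer to the start is shown, at bases 66 to 62 before it (chr12:85473806-85473845, plus strand). The windows of Fosb (chr7:19310084-19310123, minus strand) and Junb (chr8:84978833-84978872, minus strand) hold the match at bases 60 to 56 and 106 to 102 before the start. That of Dusp1 (chr17:26508592-26508631, minus strand), within an intron of a longer Dusp1 transcript, holds the palindrome at bases 143 to 136.
Fos: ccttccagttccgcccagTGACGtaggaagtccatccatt
Fosb: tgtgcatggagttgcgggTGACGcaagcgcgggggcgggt
Junb: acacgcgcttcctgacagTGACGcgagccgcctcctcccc
Dusp1: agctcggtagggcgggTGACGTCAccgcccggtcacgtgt

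Atf3 also held TGACG, read on the opposite strand 7 to 3 bases before the start. The 250 bases read for Jun, Jund and Zfp36 held none, and those of Jund may not be its promoter. The AP-1 letters TGANTCA occurred in 0 of 8, beside 6.75% of all promoters and 4.59% of those of genes tested; like all motifs here they were searched on both strands, and they do not contain TGACG. A CArG box, the site of serum response factor, whose letters can include TATAAA, was matched in 1 of 8, Zfp36, beside 1.47% of all promoters and 1.09% of those of genes tested. TATAAA was found in 1 of 8, Fos, at bases 33 to 28 before the start, beside 12.4% of all promoters and 6.48% of those of genes tested, and CCAAT in 2 of 8, Jun and Junb, beside 33.8% and 35.1%. GGGCGG, the GC box, was present in 6 of 8, beside 32.7% of all promoters and 56.4% of the promoters of genes tested. The letters GCGKGGGCG of the site of Egr1 and its relatives, with K for G or T, occurred in 2 of 8, Fosb and Zfp36, beside 3.06% of all promoters and 5.51% of those of genes tested. Since Dnmt1 methylates CG pairs, these were counted, and the 8 promoters held 3 to 28 with a median of 18.5, beside a median of 15 in genes tested and 6 in all promoters. The lowest count was that of Jund, whose start in this table lies 1210 bases from the nearest start in the GENCODE M21 annotation, and the highest that of Dusp1. A match describes letters only, and binding or methylation at these promoters was not analysed here.

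Outside the 10 genes and the lists, 5 genes were closest to the mean pattern of the 10 over the 4 samples, by Euclidean distance between log2 CPM centred on each gene's mean, among 8338 genes with a mean of at least 10 CPM. That mean pattern was 0.05 in both Dnmt1 fl/fl samples, 0.28 in Dnmt1 KO replicate 1 and -0.39 in Dnmt1 KO replicate 2. Closest was Ndufaf7, a gene for assembly of mitochondrial complex I, at a distance of 0.015, with 16.3 and 16.2 CPM in Dnmt1 fl/fl and 19.2 and 11.9 CPM in Dnmt1 KO. The others were Qsox2, B4galt6, Car13 and Sh2b2, at distances of 0.051 to 0.057. Among the 10 genes themselves Zfp36 was nearest to their mean pattern, at a distance of 0.11, and Jund and Egr1 were farthest, at 0.67 and 0.73. With 4 samples many genes share a pattern, and nothing about function follows from it.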

How the data were processed

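The authors aligned paired-end reads and counted them per gene, and the submitters' processing notes name HISAT2 2.0.5, featureCounts 1.5.0-p3, DESeq2 1.20.0 and the build mm10. They deposited estimated counts per gene without normalization; whole numbers make up 72.6% to 76.4% of a sample's values, and use of strand is not stated. The table lists genes above 0 in all 4 samples. Estimated counts were rounded, genes with low counts were removed with filterByExpr, and the rest were scaled with TMM and tested with edgeR 4.0.16 in R 4.3.3 (quasi-likelihood F-test, two-sided, Benjamini-Hochberg adjustment). Replicates varied by 28.9% (biological coefficient of variation, from a common dispersion of 0.0837). A floor of 3 counts covers counting error only. The alternatives tried were limma-voom (limma 3.58.1), DESeq2 1.42.0, library totals, other filters, a replicate block and each sample left out. Positions and exon lengths are from GENCODE M21 (GRCm38, the same assembly as mm10), promoters from RefSeq, read with Python 3.11.15 and pandas 2.3.3. Cyr61, Mkl1 and Mkl2 were matched under their current symbols Ccn1, Mrtfa and Mrtfb.

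The members and lists were chosen with earlier results of these data known. Genes were named by rule: the 10 members, Dnmt1, from each list every gene with an adjusted p under 0.05 and otherwise the 2 largest rises and 2 largest falls among genes whose genotypes did not overlap, and the 5 genes of most similar pattern; others are said to be named after their values were seen. Cell type markers were used to check the samples and are set beside the order of the samples in some genes; a marker named leads a sum by level, defines its cell type, or is said to be named after its values were seen.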

Additional observations from a re-analysis of the deposited data

How the results depend on the processing

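By edgeR, 0 of 10 immediate early genes had an adjusted p under 0.05 with all 4 samples under library totals without TMM, the other filters and the replicate block, and likewise by DESeq2 and limma-voom. Over the whole table the count of genes with an adjusted p under 0.05 was 0 by edgeR and 0 by limma-voom, and it was 1 by DESeq2, with 35, 40 and 39 genes at an unadjusted p under 0.05. It ran from 0 to 1061 when each sample was left out, where 1 genotype then rests on 1 sample assumed to vary like the other genotype, and the 1061 came without Dnmt1 KO replicate 2. Genotypes did not overlap for 4 and 3 of the 10 genes without Dnmt1 fl/fl replicates 1 and 2, beside 40.1% and 46.4% of all genes, and for 9 and 6 of the 10 without Dnmt1 KO replicates 1 and 2, beside 64.6% and 82.8% of all genes, since a lone sample more easily lies outside the others. The median log2 fold change of the 10 genes stayed between -0.18 and -0.08 with all 4 samples and ran from -0.37 to 0.20 when each sample was left out. The -0.18 came with library totals, where the median over all genes tested was -0.062, beside 0.00457 with TMM. The sign of small differences turned: with library totals the log2 fold change was -0.020 for Fosb, -0.032 for Jun and -0.079 for Zfp36, and with limma-voom it was -0.024 for Zfp36. When each sample was left out, log2 fold changes ran from -0.75 to 0.38 for Fos, -0.28 to 0.35 for Fosb, -0.077 to 0.16 for Jun, -0.56 to 0.16 for Junb, -0.28 to 0.98 for Jund, -0.38 to 0.25 for Ier2, -0.56 to 0.28 for Atf3, -0.996 to 0.096 for Dusp1 and -0.38 to 0.32 for Zfp36. In 7 of these genes, all but Ier2 and Atf3, both ends came from leaving out a Dnmt1 KO sample. These ranges follow from the gaps between replicates given above, and the cause of those gaps was not tested. Egr1 and Dnmt1 stayed negative under every alternative planned. For both genes the Dnmt1 KO samples were the lower pair, so leaving out 1 sample could hardly turn the sign. Dnmt1 had an edgeR adjusted p of 0.0200 without Dnmt1 KO replicate 2, the lowest of the alternatives planned.

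A replicate block left the count of calls at 0, the median log2 fold change of the 10 genes was -0.09, and that of Zfp36 turned to -0.026. Same-numbered samples tended to deviate in opposite directions, with a correlation of -0.35 across genes, which are not independent replicates. In Fos, Fosb, Jun, Atf3 and Zfp36, replicate 1 was above replicate 2 in both genotypes. The rest of the 10 genes deviated in opposite directions. The numbers were not taken to pair the samples. A crossed pairing, added after seeing the data, called 3 genes.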
